A study of Mus musculus with 20 samples.

Results

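The miR-9 family in these data is a set of 4 mature miRNAs, mmu-miR-9-5p, mmu-miR-9-3p, mmu-miR-9b-5p and mmu-miR-9b-3p, chosen by name and written below without the species prefix. All 4 were present among the 1481 miRNA features of the deposited tables, in each of the 6 tables. They were followed in small RNA libraries from primary mouse cortical neurons, isolated at embryonic day 15 and grown for 7 days, of 2 genotypes, WT and ciRS-7 KO, of which the second is a knockout of the circular RNA ciRS-7 (Cdr1as). Cultures of each genotype spent 12 h in normoxia or in oxygen-glucose deprivation (OGD), a dish model of ischaemia. Normoxic cells had 5% CO2 at 37 °C and medium containing glucose at 25 mM and pyruvate at 0.2 mM, and OGD cells had 1% O2 and 5% CO2 at 37 °C in medium lacking both additions. This gave 4 groups of 5 libraries, which are called here wild-type normoxia, wild-type OGD, knockout normoxia and knockout OGD. The strain label was C57BL/6N-Cdr1asem1Nikr for all 20 samples, those with the genotype WT included. The labels do not say whether replicates came from separate embryos, litters or cultures, so p-values measure the spread between these samples, which may be technical.

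miR-9 is a deeply conserved miRNA of the nervous system. Its precursors are cut into a 5p arm and a 3p arm that are loaded into Argonaute separately and, having different seeds, recognise different targets. In the developing cortex miR-9-5p acts in progenitor proliferation, neuronal differentiation and axon growth, with targets that include the transcription factors Nr2e1 (Tlx) and Rest, while miR-9-3p (also called miR-9*) targets the Rest cofactor Rcor1 (CoREST). The name miR-9b belongs to miRNAs annotated on the strand opposite to the miR-9 genes. miR-9b-3p is therefore not a sequence variant of miR-9-3p in the way that family names usually imply.

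The mature sequences show how the 4 members relate, and are given 5′ to 3′ from RefSeq (GRCm38.p6) with the seed, bases 2 to 8, in capitals.
miR-9-5p: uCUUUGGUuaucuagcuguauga
miR-9b-3p: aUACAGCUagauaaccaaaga
miR-9-3p: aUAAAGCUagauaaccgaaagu
miR-9b-5p: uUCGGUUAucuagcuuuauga
The 4 seeds all differ, and none of them occurred in another of the 1248 features that had a RefSeq sequence. The whole of miR-9b-3p, 21 bases, is the exact reverse complement of bases 1 to 21 of miR-9-5p. miR-9b-5p is antisense to miR-9-3p over 19 bases. Read on the same strand, miR-9-5p and miR-9b-5p matched at 19 bases with 2 mismatches in the best ungapped alignment, and miR-9-3p and miR-9b-3p at 17 bases with 4 mismatches. The sources used here do not give whether the counting used strand or how reads shared by several rows were assigned, so reads from a miR-9 arm and its antisense partner cannot be told apart with certainty.

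miR-9-5p and miR-9-3p have 3 precursor genes, shown here in GRCm38.p6 with the 2 mature arms in capitals because both arms are identical in all 3.
Mir9-1, chr3:88215598-88215686, plus strand: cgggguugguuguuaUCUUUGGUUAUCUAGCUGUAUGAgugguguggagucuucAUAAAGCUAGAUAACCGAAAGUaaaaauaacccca
Mir9-2, chr13:83738814-83738885, plus strand: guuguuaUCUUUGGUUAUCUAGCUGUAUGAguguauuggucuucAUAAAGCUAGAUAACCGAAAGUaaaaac
Mir9-3, chr7:79505264-79505353, plus strand: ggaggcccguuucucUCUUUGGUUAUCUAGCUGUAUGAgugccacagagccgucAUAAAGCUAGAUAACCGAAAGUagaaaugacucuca
Each lies in a long noncoding RNA gene on the same strand in GENCODE. The host of Mir9-1 is Gm3764 and that of Mir9-3 is Mir9-3hg, in both cases outside annotated exons, while Mir9-2 lies wholly within an exon of C130071C03Rik. miR-9b-3p is annotated on the minus strand at the same 3 places and miR-9b-5p at 2 of them. The loops between the arms are 14 to 16 bases long and differ between the genes. Since the mature arms do not, the counts cannot be assigned to 1 of the 3 genes.

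Recovered read totals were 1160582 to 12477032 per library and lower after OGD, with means of 6651845 in wild-type normoxia against 2263561 in wild-type OGD, and 9171273 in knockout normoxia against 2510828 in knockout OGD. ciRS-7 itself is not a feature of these tables, so the genotype labels were not checked against it. Summed over the 5 neuronal marker miRNAs (miR-124-3p, miR-128-3p, miR-129-5p, miR-138-5p and miR-218-5p), libraries held 53357 to 99880 counts per 1000000 reads (CPM), scaled by the authors' library factor. The 4 markers of microglia and blood-derived cells summed to 3.4 to 15.2 CPM, and the 3 of oligodendrocytes to 5.86 to 15.3 CPM. The first principal component of 423 features, with 83% of the variance, separated OGD from normoxia, and wild-type normoxia replicate 5 stood apart from its group at -0.88, against -14.46 to -13.09 for the other 4. That library also had the fewest reads of its group, 2492065 against 5164319 to 9117862. This depth lies within the 1160582 to 4374002 reads of the wild-type OGD libraries. Results that include that library are given below with and without it where its removal changed a call, turned a direction or moved a called value by more than 1.5 times.

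Together the 4 members took 32.7% ± 1.37 (SD, n = 20) of all miRNA reads, between 29.8% and 35.4% in single libraries. The mean share was 32.3% ± 1.62 in wild-type normoxia, 32.5% ± 1.52 in wild-type OGD, 32.4% ± 0.737 in knockout normoxia and 33.7% ± 1.33 in knockout OGD (SD, n = 5 each). The ranges of the 4 groups overlap. Most of this was miR-9-5p, followed by the antisense row miR-9b-3p, then miR-9-3p, and miR-9b-5p was by far the rarest. That order was the same in every library.

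**Figure D1:**
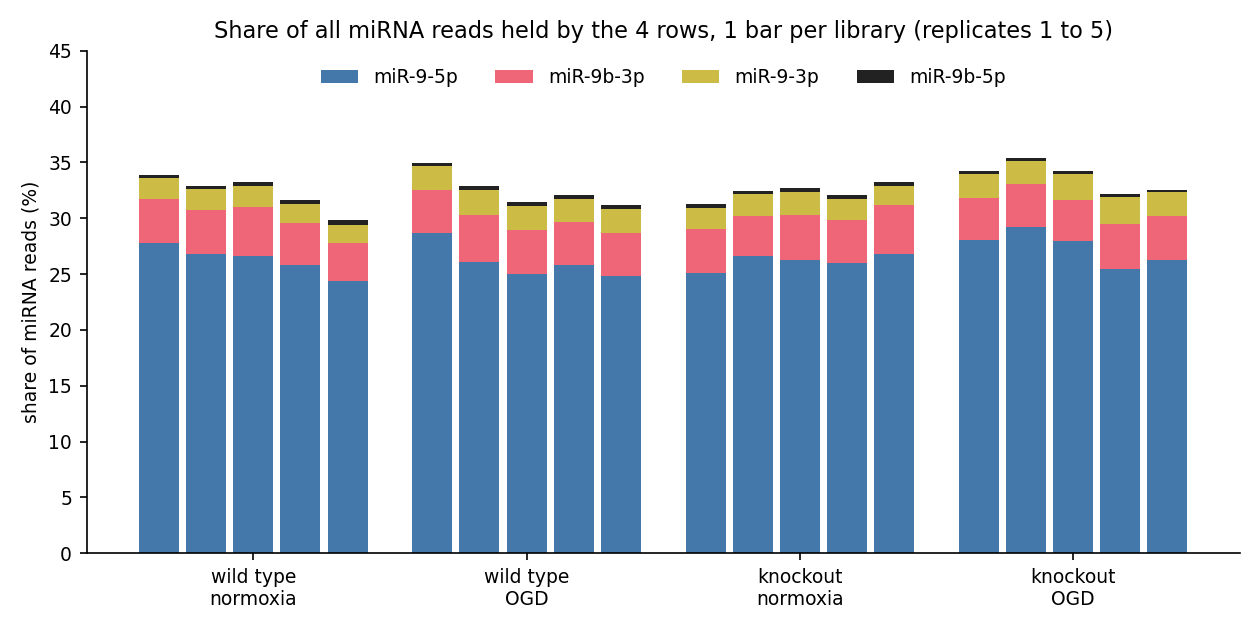
Share of all miRNA reads (%, vertical axis) held by miR-9-5p, miR-9b-3p, miR-9-3p and miR-9b-5p, stacked, with 1 bar for each of the 20 libraries and the 4 groups along the horizontal axis. The stacks reach 29.8% to 33.9% in wild-type normoxia, 31.2% to 34.9% in wild-type OGD, 31.3% to 33.3% in knockout normoxia and 32.2% to 35.4% in knockout OGD, and miR-9-5p makes up most of each bar.

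miR-9-5p, the guide arm, was the most abundant miRNA in each of the 20 libraries. In wild-type normoxia replicates 1 to 5 its level was 300915, 277348, 270408, 251921 and 229668 CPM. In wild-type OGD the values were 307756, 245437, 246160, 259749 and 248447 CPM. Replicate 1 was the highest in each group, and the groups overlap over most of their range. In knockout normoxia the 5 libraries held 259940, 262119, 263613, 246045 and 264354 CPM, the narrowest spread of the 4 groups. In knockout OGD they held 284355, 300941, 284805, 236453 and 265244 CPM, with replicate 4 below every normoxic knockout library and replicates 1, 2, 3 and 5 above them all. The next most abundant miRNA in each group was miR-99a-5p, at mean levels of 92590 to 104010 CPM, and its range did not reach that of miR-9-5p in any group.

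As a share of reads, miR-9-5p was 26.3% ± 1.26 in wild-type normoxia and 26.1% ± 1.53 in wild-type OGD, so the means lay -0.21 percentage points apart (p = 0.825, exact permutation test, two-sided). In knockout neurons it was 26.2% ± 0.693 in normoxia and 27.4% ± 1.49 after OGD, a difference of 1.24 points (exact permutation p = 0.111, adjusted over the 4 comparisons 0.397). The share differed by -0.12 points between genotypes in normoxia (exact permutation p = 0.881) and by 1.33 points in OGD (exact permutation p = 0.198).

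miR-9-3p, the other arm of the same precursors, was the 11th most abundant miRNA in every library. Its levels in wild-type normoxia were 20283, 19541, 19434, 16997 and 14938 CPM, of which replicate 5, the library that stood apart, was the lowest. In wild-type OGD they were 22537, 21349, 21016, 20725 and 21256 CPM, all above the highest normoxic value. Knockout normoxia gave 19035, 19549, 20778, 18548 and 16730 CPM. Knockout OGD gave 22344, 21539, 24014, 22187 and 21076 CPM, again all above the normoxic libraries of that genotype. The neighbours above it were miR-26a-5p in normoxia, at 25305 and 25348 CPM in wild-type and knockout neurons, and let-7c-5p after OGD, at 25442 and 25731 CPM. Those below it were miR-127-3p in normoxia, at 12662 and 13060 CPM, and miR-181a-5p after OGD, at 17319 and 17216 CPM. None of these neighbours overlapped miR-9-3p in its group.

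miR-9b-3p, the row antisense to miR-9-5p, was among the most abundant features, at ranks 4 to 7. Its levels were 42929, 40498, 44779, 36189 and 32122 CPM in wild-type normoxia and 42171, 40189, 39631, 38132 and 38591 CPM in wild-type OGD. The OGD values lie inside the normoxic range. In knockout normoxia it was at 41620, 35515, 40333, 35791 and 43149 CPM, and in knockout OGD at 37839, 39422, 37289, 36872 and 39887 CPM, which also lies inside the range of normoxia. Its level overlapped that of its neighbours let-7f-5p, let-7g-5p or miR-128-3p in each group where they were adjacent, so its exact rank is not resolved.

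miR-9b-5p, the row antisense to miR-9-3p, was the rarest member, at ranks 31 to 47. Wild-type normoxia held 3159, 3311, 3192, 3093 and 4001 CPM, with replicate 5 the highest. Wild-type OGD held 3189, 3160, 2859, 3292 and 3667 CPM and overlapped normoxia. Knockout normoxia held 4126, 2604, 3552, 2765 and 3419 CPM, the widest relative spread of any member in any group. Knockout OGD held 2368, 2817, 2616, 2833 and 2573 CPM, all below the 5 wild-type OGD libraries and overlapping knockout normoxia in part.

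**Figure D2:**
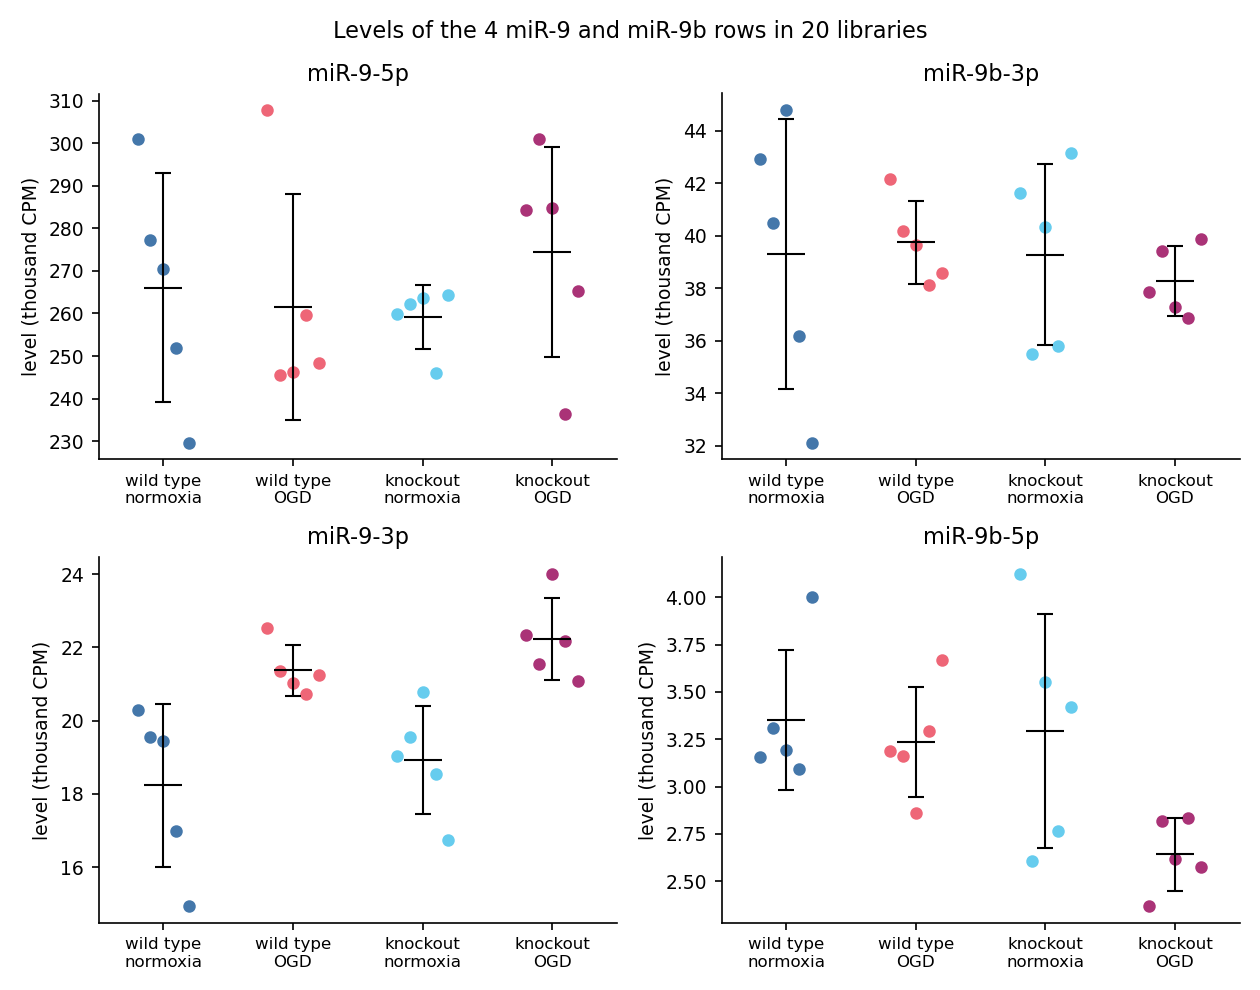
Levels of the 4 members in 1000 CPM (vertical axes, which differ between panels and do not start at 0), 1 point per library, with bars for the mean ± SD of the 5 libraries of each group. For miR-9-3p both OGD groups lie above the normoxic group of the same genotype without overlap, and for miR-9b-5p the knockout OGD libraries lie below all wild-type libraries.

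OGD was compared with normoxia within each genotype by limma over all features on log2(CPM + 0.5). In wild-type neurons 0 of the 4 members passed an adjusted p of 0.05, where 23.1% of the 1478 features tested did (276 higher and 65 lower), and 47.3% of the 425 with a mean log2 level of at least 3. miR-9-3p had a mean of 18239 ± 2221 CPM in normoxia and of 21377 ± 692 CPM in OGD (SD, n = 5), with a log2 difference of 0.24 (SE 0.09, limma adjusted p = 0.0753). It was the only member whose groups did not overlap, which was true of 16% of all features and 35.3% of those 425. For miR-9-5p the log2 difference was -0.02 (95% interval -0.22 to 0.18), for miR-9b-3p 0.03 (-0.17 to 0.23) and for miR-9b-5p -0.05 (-0.25 to 0.16). As folds these intervals reach from 0.838 to 1.17, so they do not show that the 3 stayed the same. The difference of miR-9-3p did pass under 8 other settings (limma adjusted p = 0.0142 to 0.0427), among them CPM over total reads, voom, thinned libraries, the replicate block and 1 fit over all 20 libraries. Another of the 8 used the deposited values, whose extremes were limited within each group, which narrows the spread that a test sees. Without wild-type normoxia replicate 5 it was 0.17 (limma adjusted p = 0.150), and the signs of the small differences of miR-9b-3p and miR-9b-5p turned, to -0.045 and 0.016. Without replicate 1 of that group miR-9-3p passed (0.28, limma adjusted p = 0.047) and the sign of miR-9-5p turned, to 0.022.

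In knockout neurons miR-9-3p passed the test and the other 3 members did not, where 24.5% of 1479 features passed in either direction, 18.8% were called higher, and 53.6% passed among the 420 with a mean log2 level of at least 3. Its mean level of 18928 ± 1483 CPM in normoxia became 22232 ± 1119 CPM in OGD, a log2 difference of 0.23 (SE 0.08, limma adjusted p = 0.0305), and the groups did not overlap (nor did those of 19.1% of features, and of 44.8% of the 420). By size this was an ordinary difference, the 936th largest of 1479. The call was lost without knockout normoxia replicate 4 or 5 or without knockout OGD replicate 3 (limma adjusted p = 0.0586, 0.0765 and 0.0558). For miR-9b-5p the means were 3293 ± 619 and 2641 ± 192 CPM, which gave a log2 difference of -0.30 (SE 0.11, limma adjusted p = 0.0582), which passed without knockout normoxia replicate 2 (-0.38, limma adjusted p = 0.0223) and under 9 other settings, among them CPM over total reads, voom, the replicate block, quantile normalization and the deposited values with their limited extremes. The difference was 0.08 for miR-9-5p (95% interval -0.09 to 0.25) and -0.03 for miR-9b-3p (-0.20 to 0.13).

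These differences depend on how the libraries are scaled. Centring each library on the median of the features with a mean log2 level of at least 3 moved the OGD difference of every feature down by 0.56 in wild-type and by 0.51 in knockout neurons on the log2 scale. The calls over all features turned as well, from 276 higher and 65 lower to 108 higher and 265 lower in wild-type neurons, and from 278 and 85 to 112 and 324 in knockout neurons. With quantile normalization they were 141 and 191, and 141 and 186. Under median centring all 4 members were lower after OGD and passed the test in both genotypes. Relative to that shift the difference was -0.59 for miR-9-5p, -0.54 for miR-9b-3p, -0.32 for miR-9-3p and -0.61 for miR-9b-5p in wild-type neurons. The corresponding values in knockout neurons were -0.43, -0.54, -0.28 and -0.81. Under quantile normalization miR-9-5p and miR-9-3p, which held ranks 1 and 11 in every library, differed by 0. A constant rank fixes that value in advance, so this setting could not show a change in either.

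**Figure D3:**
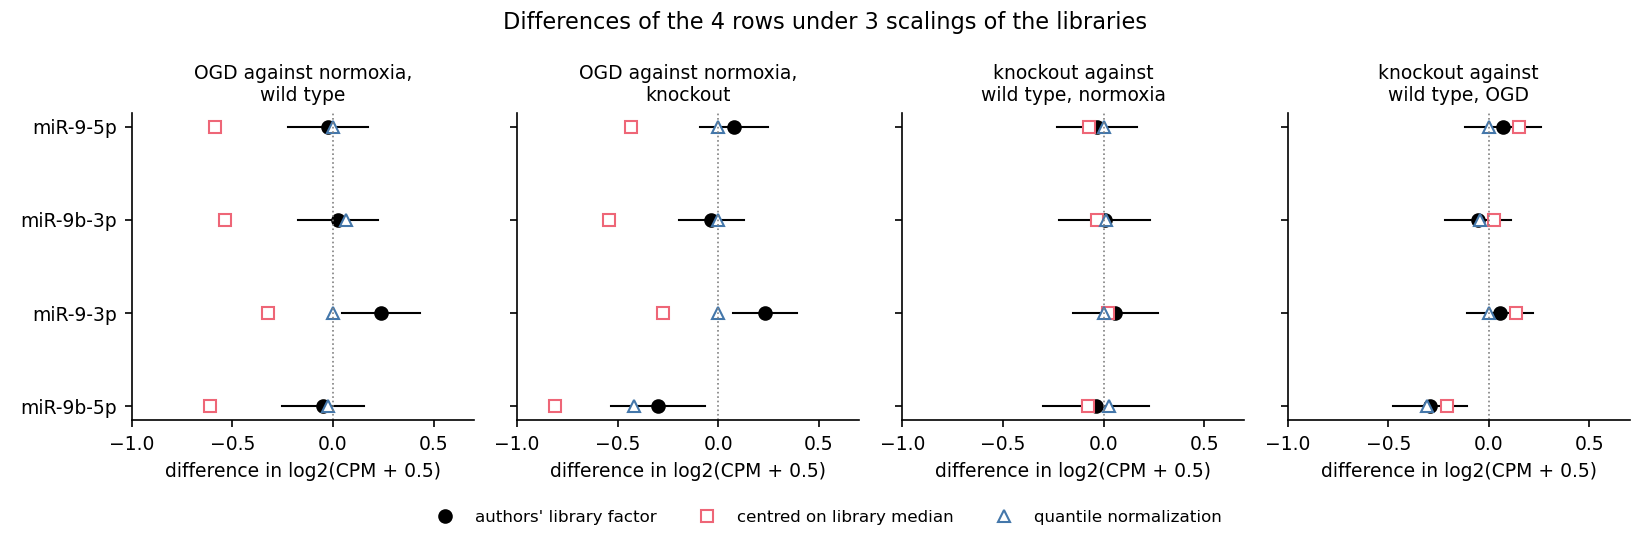
Difference of each member in log2(CPM + 0.5) (horizontal axes) for the 4 comparisons, with the authors' library factor (filled circles, lines for the 95% interval), libraries centred on their median (squares) and quantile normalization (triangles). Centring moves the OGD differences of all members by -0.56 and -0.51, while the differences between genotypes move by less than 0.1.

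A ratio within a library does not depend on that scaling. A share of reads does not use the library factor, but it is itself a scaling by total reads. The share of miR-9-3p rose from 1.80% ± 0.136 to 2.14% ± 0.077 of reads after OGD in wild-type neurons and from 1.91% ± 0.145 to 2.23% ± 0.144 in knockout neurons (SD, n = 5 each). In both genotypes the 5 OGD libraries lay above the 5 normoxic ones. Shares did not overlap for 16.8% of all features in wild-type neurons and 37.9% of those with a mean log2 level of at least 3, and for 18.7% and 44.3% in knockout neurons. For miR-9-3p the exact two-sided permutation p was 0.00794, the smallest that 5 libraries against 5 can give (adjusted over the 4 comparisons 0.0159 in each). Without knockout normoxia replicate 5 the difference in knockout neurons was 0.263 points in place of 0.316, still without overlap (adjusted exact permutation p = 0.0635). A share still depends on what the other miRNAs did. The shares of the genotypes differed by 0.11 points in normoxia (exact permutation p = 0.254) and 0.0899 points in OGD (exact permutation p = 0.262). With 1 library left out these ranged from 0.0564, without wild-type normoxia replicate 5, to 0.163 points, without knockout normoxia replicate 5, and from 0.0485, without knockout OGD replicate 4, to 0.125 points, without knockout OGD replicate 5.

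The ratio of miR-9-5p to miR-9-3p compares the 2 arms that the same hairpins yield. In wild-type normoxia it was 14.8, 14.2, 13.9, 14.8 and 15.4 reads of miR-9-5p per read of miR-9-3p, and in wild-type OGD 13.7, 11.5, 11.7, 12.5 and 11.7. The groups do not overlap, and the OGD group was lower. The arm ratio fell by 0.26 on the log2 scale (from 3.87 to 3.61, SE 0.07, limma adjusted p = 0.0042 over 100 arm pairs). An arm ratio that changes was common: 64% of the 100 tested pairs passed in wild-type neurons (30% lower) and 44% did not overlap. miR-9 stood 37th from the lowest difference, next to miR-125a (-0.26) and miR-362 (-0.24), and 74 pairs changed by more. Without wild-type normoxia replicate 5 its difference was -0.24 (limma adjusted p = 0.00433).

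In knockout normoxia the ratio was 13.7, 13.4, 12.7, 13.3 and 15.8, and in knockout OGD 12.7, 14.0, 11.9, 10.7 and 12.6. Here the groups overlap, with replicate 2 of OGD above 4 of the 5 normoxic libraries. The log2 difference was -0.16 (SE 0.09, limma adjusted p = 0.107), where 70% of pairs passed, and it passed without knockout OGD replicate 2 (-0.20, limma adjusted p = 0.0372) and with the deposited values, whose spread within groups is narrowed (limma adjusted p = 0.02). The difference between the genotypes in the OGD effect was itself 0.11 (SE 0.11, limma adjusted p = 0.996, with 0% of pairs past the threshold), so the arm ratio is not shown to respond differently in the knockout. Over all 20 libraries the mean log2 ratio of the arms was 3.72, and 33 of the 100 pairs were more unequal.

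**Figure D4:**
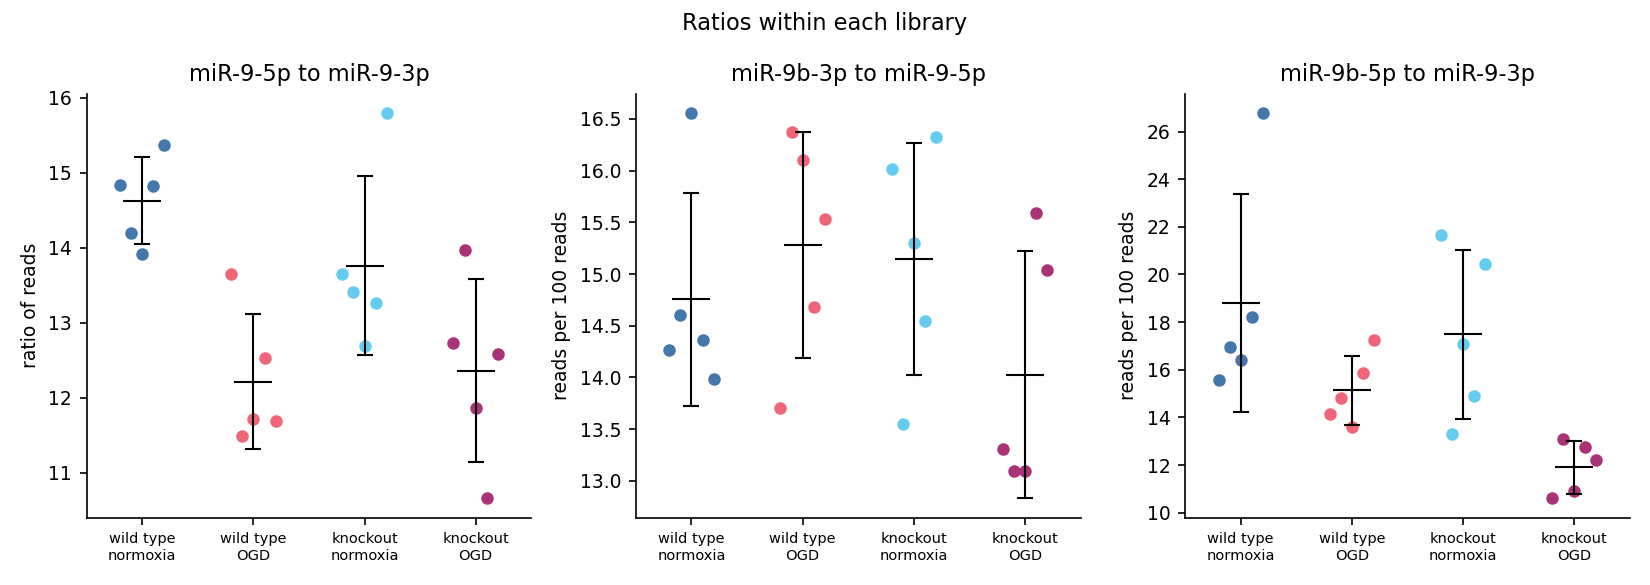
Ratios within each library, 1 point per library and bars for the mean ± SD of 5: reads of miR-9-5p per read of miR-9-3p (left), miR-9b-3p per 100 miR-9-5p reads (middle) and miR-9b-5p per 100 miR-9-3p reads (right); the vertical axes do not start at 0. The left panel shows the wild-type OGD libraries at 11.5 to 13.7 below the normoxic ones at 13.9 to 15.4, and the right panel the knockout OGD libraries at 10.6 to 13.1 below the other groups.

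Both antisense rows held a minor proportion of their sense partners in every library. There were 14.8 ± 1.03 reads of miR-9b-3p per 100 reads of miR-9-5p in wild-type normoxia, 15.3 ± 1.09 in wild-type OGD, 15.1 ± 1.13 in knockout normoxia and 14.0 ± 1.2 in knockout OGD. The groups overlap in every pair. For miR-9b-5p per 100 reads of miR-9-3p the means were 18.8 ± 4.57, 15.1 ± 1.45, 17.5 ± 3.55 and 11.9 ± 1.11 in the same order. The value of 26.8 in wild-type normoxia replicate 5 is well above the 15.6 to 18.2 of the other 4, and widens that group. Knockout OGD, at 10.6, 13.1, 10.9, 12.8 and 12.2, lay below all knockout normoxia and all wild-type OGD libraries. The differences were -5.58 per 100 against knockout normoxia and -3.23 per 100 against wild-type OGD (exact two-sided permutation p = 0.00794 for each, adjusted over the 4 comparisons 0.0159). This ratio was an alternative to the planned one of both rows, which did not pass, as given below. Without knockout OGD replicate 1 they were -5.25 and -2.90 (adjusted exact permutation p = 0.0635 for each). In wild-type neurons the OGD difference was -3.65 per 100 (exact permutation p = 0.0635, adjusted 0.0847). Without wild-type normoxia replicate 5 it was -1.65 (adjusted exact permutation p = 0.159), and without replicate 1 of that group -4.45 (adjusted exact permutation p = 0.0423). The genotypes differed by -1.30 per 100 in normoxia (exact permutation p = 0.651), which without wild-type replicate 5 turned to 0.701.

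For both miR-9b rows over both miR-9 rows the 4 groups had 15.01 ± 0.88, 15.26 ± 1.02, 15.3 ± 1.27 and 13.86 ± 1.14 reads per 100 in that order. The groups overlap. This was the planned ratio. It differed by -1.44 per 100 after OGD in knockout neurons and by -1.40 between genotypes in OGD. Neither passed (exact permutation p = 0.103 and 0.0714, adjusted over the 4 comparisons 0.206 for each). For miR-9b-3p over miR-9-5p the adjusted exact permutation p was 0.349 in both. The adjustment does not cover the choice among these ratios. The sum is dominated by miR-9b-3p and does not show the lower value of miR-9b-5p in knockout OGD.

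Antisense miRNA names were not rare in the tables. A search for pairs of features annotated by RefSeq on opposite strands of the same place over at least 15 bases found 25, and in 9 of them the less abundant row had a mean of at least 10 CPM. In the 7 of these outside the miR-9 family the less abundant row had 2.8 to 55.1 reads per 100 of its partner as the mean over the 20 libraries, each weighted equally, with a median of 12.2. The corresponding means of 14.8 for miR-9b-3p and 15.8 for miR-9b-5p lie within that range, though the second differed between groups as given above. The pair of miR-24-3p and miR-3074-5p had the highest proportion in each group. The lowest group means were those of miR-3071-5p per miR-136-3p in normoxia (2.94 and 2.09 in wild type and knockout) and of miR-3071-3p per miR-136-5p in OGD (2.58 and 2.6). In wild-type neurons the proportion did not overlap between OGD and normoxia in 1 of the 9 pairs (11.1%), miR-129-5p and miR-129b-3p, where it was 5.4 ± 0.371 per 100 in normoxia and 15.7 ± 1.95 in OGD. In knockout neurons 5 of the 9 did not overlap (55.6%), of which miR-9b-5p per miR-9-3p was 1. The others were the miR-129-5p pair, higher after OGD at 15.8 ± 2.35 against 5.51 ± 0.124, and miR-3071-5p per miR-136-3p, also higher at 2.9 against 2.09. The proportion of miR-30f to miR-30e-3p was lower there, at 9.45 ± 0.948 after OGD against 13.8 ± 2.57, and so was that of miR-3071-3p to miR-136-5p, at 2.6 ± 0.461 against 4.4 ± 0.438. In wild-type neurons those last 2 overlapped, at 11.3 ± 0.968 against 14.2 ± 3.73 and at 2.58 ± 0.454 against 3.86 ± 0.942. A proportion that was lower after OGD in knockout neurons without overlap was thus not particular to the miR-9b-5p pair. Between genotypes the miR-9b-5p pair was the 1 of 9 that did not overlap in OGD, and none did so in normoxia (0%). These other pairs were named after their values were seen, and no test was run on them.

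**Figure D5:**
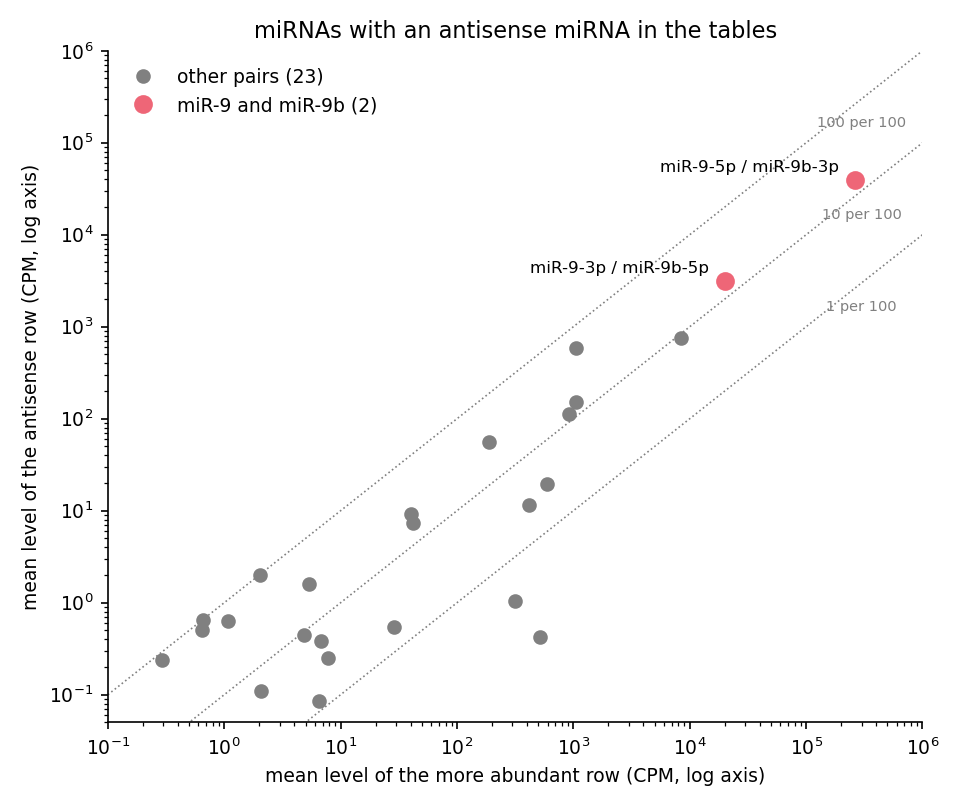
Mean level over 20 libraries of the less abundant row (vertical axis, CPM, log scale) against its more abundant antisense partner (horizontal axis, CPM, log scale) for 25 pairs, with dotted lines at 100, 10 and 1 reads per 100. The less abundant rows of the 2 miR-9 pairs are the highest of the 25, and the mean levels of these pairs stand at 14.8 and 15.5 per 100.

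The knockout was compared with wild type within each condition. These comparisons share their libraries with those of OGD, so the values are not independent of the ones above. In normoxia 0 of the 4 members passed, and 0% of 1481 features did by limma (47 had an unadjusted p under 0.05). The log2 differences were -0.03 for miR-9-5p (95% interval -0.23 to 0.17), 0.06 for miR-9-3p (-0.15 to 0.27), 0.00 for miR-9b-3p (-0.22 to 0.23) and -0.04 for miR-9b-5p (-0.30 to 0.22). Without wild-type normoxia replicate 5 the signs of the last 3 turned, to -0.011, -0.065 and 0.026. Some of these differences near 0 also changed sign without other single libraries. In OGD again 0 of the 4 members and 0% of 1481 features passed by limma, with 108 features at an unadjusted p under 0.05. limma on the deposited values called 33 features in normoxia and 72 in OGD, but limiting the extremes within each group narrows their spread, so these counts are not comparable.

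Among the members the largest difference between genotypes was that of miR-9b-5p in OGD, with means of 3233 ± 291 CPM (wild type) and 2641 ± 192 CPM (knockout). Its groups did not overlap, as was true of 0.945% of features in either direction and 0.54% in this one, and its log2 difference was -0.29 (SE 0.09, limma adjusted p = 0.41). The other members differed by 0.07 (miR-9-5p, 95% interval -0.12 to 0.26), 0.06 (miR-9-3p, -0.11 to 0.22) and -0.05 (miR-9b-3p, -0.22 to 0.11). The interaction of genotype and OGD was -0.25 for miR-9b-5p (SE 0.15, limma adjusted p = 0.990), 0.10 for miR-9-5p, -0.06 for miR-9b-3p and 0.00 for miR-9-3p. None of them passed, nor did any feature (0%, with 74 at an unadjusted p under 0.05). Without wild-type normoxia replicate 5 the values of miR-9b-3p and miR-9-3p turned positive, at 0.011 and 0.067.

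The remaining values compare groups that differ in both factors, whose parts cannot be told apart. For knockout OGD against normoxic wild type there was a log2 difference of 0.29 for miR-9-3p (SE 0.09, limma adjusted p = 0.0358) and -0.34 for miR-9b-5p (SE 0.09, limma adjusted p = 0.0145), both without overlap, where 22.2% of features passed and 16.1% did not overlap. Without wild-type normoxia replicate 5 these were 0.22 (limma adjusted p = 0.0684) and -0.27 (limma adjusted p = 0.023). The call of miR-9-3p was also lost without replicate 4 of that group and without any 1 of the 5 knockout OGD libraries (limma adjusted p = 0.0537 to 0.0945), while that of miR-9b-5p held without each of the 10 libraries in turn. Wild-type OGD against knockout normoxia had 0.18 for miR-9-3p (limma adjusted p = 0.0851) and -0.01 for miR-9b-5p (limma adjusted p = 0.955), where 26.2% of features passed.

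The members differed in how steady they were, and this too depends on the scaling. With the authors' factor, across the 20 libraries the SD of log2(CPM + 0.5) was 0.11 for miR-9b-3p and 0.12 for miR-9-5p, the 11th and 14th steadiest of 218 features with a mean of at least 100 CPM, against a median SD of 0.24. It was 0.16 for miR-9-3p and 0.21 for miR-9b-5p, at places 45 and 83. Within groups the SDs were closer, at 0.12 for miR-9-5p, miR-9b-3p and miR-9-3p and 0.18 for miR-9b-5p, against a median of 0.17, and their places were 40, 39, 33 and 112. With libraries centred on their median the SDs over the 20 libraries were 0.30 for miR-9-5p, 0.30 for miR-9b-3p, 0.20 for miR-9-3p and 0.42 for miR-9b-5p, at places 104, 110, 36 and 155, against a median of 0.30.

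Profiles were also compared by the root mean square difference of log2 levels over the 20 libraries, each centred on its own mean, a description with no test. The 5 features most like miR-9-5p were miR-185-5p (0.08), let-7g-5p (0.09), let-7f-5p (0.10), miR-532-5p (0.10) and miR-98-5p (0.10), where the median of 217 features was 0.25. Its antisense row miR-9b-3p came 7th (0.11) and its own precursor partner miR-9-3p 31st (0.15), while miR-9b-5p came 113th (0.26). For miR-9-3p the 5 were miR-384-3p (0.09), miR-181b-5p (0.10), miR-26a-5p (0.10), miR-194-5p (0.10) and miR-185-5p (0.11). miR-9-5p was 27th in that order (0.15) and the antisense row miR-9b-5p 141st (0.32). In these 20 libraries miR-9-3p was thus nearer to 26 other miRNAs than to its own partner arm. All of these levels share each library's depth and scaling factor.

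A list of 12 other miRNAs of neurons and neural progenitors gives the setting. By limma 5 were higher and 2 lower after OGD in wild-type neurons, where 23.1% of all features and 47.3% of those with a mean log2 level of at least 3 passed, with a median log2 difference of 0.25 against 0.32 over all features. In knockout neurons the counts were also 5 and 2, against 24.5% and 53.6% of features, with medians of 0.15 and 0.24. miR-124-3p, the neuronal miRNA that acts with miR-9 in neuronal fate, rose by 0.74 on the log2 scale in wild-type neurons, from 3392 ± 491 CPM to 5628 ± 534 CPM, and by 0.56 in the knockout, from 3660 ± 377 CPM to 5399 ± 481 CPM. Its other arm miR-124-5p fell, by 1.15 and by 1.11 on the log2 scale. miR-128-3p, a regulator of neuronal excitability, fell from 60839 ± 13671 to 40381 ± 3761 CPM in wild-type neurons, and fell by 0.53 on the log2 scale in knockout neurons. The list's split turned with the scaling: with libraries centred on their median 1 was higher and 5 lower in wild-type neurons and 1 and 6 in knockout neurons, miR-138-5p being the higher one in both. With quantile normalization 3 were higher and 3 lower in wild-type neurons and 2 and 1 in knockout neurons, where the call of miR-128-3p was lost. miR-124-3p passed with the authors' factor and with quantile normalization, but not with median centring. None of the 12 passed between genotypes in either condition.

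Other measures moved with OGD as well. The summed neuronal markers were 70171 to 96594 CPM in wild-type normoxia and 55591 to 63262 CPM after OGD, and 64856 to 99880 against 53357 to 63957 CPM in knockout neurons, where 2 of the 5 rose and 2 fell by limma in each genotype. Most of this sum was miR-128-3p, at means of 60839 and 40381 CPM in wild-type and 63757 and 43234 CPM in knockout neurons. It fell, as did miR-129-5p, while miR-124-3p and miR-138-5p rose, so the sum does not speak for all 5. The 3 markers of dividing progenitors, in which miR-9 is also expressed, summed to 2112 to 4248 CPM in wild-type normoxia and 3574 to 4887 CPM after OGD, with 1 of 3 higher by limma. In knockout neurons they summed to 2655 to 4017 CPM and 4548 to 6412 CPM, with all 3 higher. With median centring 0 of these 3 were higher in wild-type and 1 in knockout neurons, and the 5 neuronal markers had 1 higher and 2 lower in wild-type and 1 higher and 3 lower in knockout neurons. With quantile normalization 0 of the 3 progenitor markers were higher in wild-type neurons, and all 3 stayed higher in knockout neurons. The 5 neuronal markers then had 2 higher and 2 lower in wild-type and 2 higher and 1 lower in knockout neurons. The 4 microglia and blood markers summed to 3.4 to 7.25 and 5.02 to 13.2 CPM in wild-type and to 4.9 to 6.82 and 6.87 to 15.2 CPM in knockout neurons. Their defining members miR-142a-3p and miR-223-3p had means under 1.5 CPM in every group, and most of the sum was miR-155-5p, at means of 4.58 to 7.58 CPM. By limma 0 of the 4 passed after OGD in wild-type neurons and 1 in knockout neurons, miR-155-5p, which was higher by 0.63 (limma adjusted p = 0.0458). Of the 3 oligodendrocyte markers 0 passed in wild-type neurons and 1 in knockout neurons, miR-338-3p (0.75 higher, limma adjusted p = 0.0161). The 2 endothelial markers, mostly miR-126a-3p, summed to 269 to 393 CPM over all libraries, and 1 was higher in wild-type neurons, miR-126a-5p (0.57, limma adjusted p = 0.0377), and 0 in knockout neurons. The 2 of the vessel wall summed to 29.9 to 64.4 CPM and the 2 of red cells to 0.557 to 5.1 CPM, and 0 of either passed in either genotype. The calls of miR-155-5p, miR-338-3p and miR-126a-5p were lost with median centring and with quantile normalization, and under these settings miR-126a-3p, miR-219a-2-3p, miR-144-3p or miR-143-3p was called lower in 1 or both genotypes. These counts stand beside the same 23.1% and 24.5% of all features that passed. None of these lists had a member at 0 in all libraries. Their part in the differences of the miR-9 family was not tested. In such bulk libraries a lower share of cells that carry a miRNA and less of it per cell cannot be told apart. Depth also moved with OGD, and with all libraries thinned to the shallowest the wild-type difference of miR-9-3p was 0.26 (limma adjusted p = 0.0142). Thinned libraries were scaled by their own totals in place of the authors' factor, so this value changes depth and scaling together. The part of depth was not tested.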

How the data were processed

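Small RNA libraries were made from TRIzol-extracted RNA with the NEBNext small RNA kit and size selection, per the labels' protocols, which mention no molecular identifiers. The genome build was mm10 per the submitters' processing notes, and the aligner, the miRBase release and the handling of strand and of reads with several matches are not given in the sources used here. The authors deposited 6 tables, 1 for each pair of groups, whose values are treated here as a score, since no header or label states how they were made. From the values themselves, each is a power of reads divided by a library factor, with the extremes of a feature in a group of 5 limited at the quantiles 0.16 and 0.84. Undoing these steps gave whole reads (tolerance 0.1) for all values, and the reads of a library did not differ between tables in any of 58900 comparisons. The counts per 1000000 reads (CPM) used here are these reads over the factor recovered from the tables. Levels were compared with limma 3.58.1 in R 4.3.3 with a mean-variance trend, on log2(CPM + 0.5), two-sided, over the 10 libraries of a pair, with Benjamini-Hochberg adjustment over all features and a threshold of 0.05, and the interaction over all 20 libraries. Arm ratios were fitted likewise over 100 pairs of arms with a mean log2 of at least 3. Shares and read ratios were tested by exact permutation (Python 3.11.15, numpy 2.4.6, scipy 1.17.1, pandas 2.3.3), adjusted over the 4 comparisons that differ in 1 factor. The steps were tested on simulated data. Intervals cover the spread between libraries at depths of 1160582 to 12477032 reads, and amplified reads are not independent molecules. No libraries agreed within sampling noise (chi-square per degree of freedom at least 16.5 for every pair of replicates), and none were left out. The text names the members, their neighbours in abundance, the 5 features with the most similar profiles, a list of neural miRNAs and marker lists, and the members and lists were chosen with earlier results of these data known. Sequences are from RefSeq and host genes from GENCODE M21.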

Additional observations from a re-analysis of the deposited data

Results flagged for a closer look

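Dixon's ratio, the gap between the extreme library and its nearest neighbour over the whole range of the 5, was above the critical value of 0.71 in 4 of the 32 groups of member values examined, where chance alone gives about 1 in 20. miR-9-5p in wild-type OGD replicate 1 was at 307756 CPM, with the other 4 libraries at 245437 to 259749 CPM. In knockout normoxia miR-9-5p was lowest in replicate 4, at 246045 CPM against 259940 to 264354 CPM. miR-9b-5p in wild-type normoxia replicate 5, the library that stood apart on the first principal component, was at 4001 CPM against 3093 to 3311 CPM. In wild-type normoxia replicate 3 the 2 miR-9b rows held 16.6 reads per 100 miR-9 reads, against 14.3 to 14.8 in the others.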

How the results depend on the processing

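Differences here are of log2 levels unless stated, with limma adjusted p over all features. Differences of the deposited values are on the scale of that score and not comparable in size, and limiting their extremes within each group narrows the spread, so a pass with them is weak evidence. Of 300 values under other settings, 251 kept their direction and their side of the threshold, as did 476 of 540 with 1 library left out. Centring libraries on their median gave OGD differences of -0.28 (miR-9-3p, knockout), -0.32 (miR-9-3p, wild type), -0.43 and -0.59 (miR-9-5p, knockout and wild type), -0.54 (miR-9b-3p in both) and -0.81 and -0.61 (miR-9b-5p, knockout and wild type), all past the threshold. The direction turned for miR-9-3p in both genotypes, miR-9-5p in knockout and miR-9b-3p in wild-type neurons, and was already negative for the others. For miR-9b-3p it turned the genotype difference to 0.027 in OGD and -0.034 in normoxia and the interaction to 0.0099, and it turned the interaction of miR-9-3p to 0.066. Quantile normalization gave 0 for miR-9-3p in knockout neurons, where its call was lost, -0.42 for miR-9b-5p there (adjusted p = 0.0098) and a genotype difference of 0.028 for miR-9b-5p in normoxia. The 0 follows from the rank of miR-9-3p, which was the same in every library, so this setting could not test that member. The wild-type OGD difference of miR-9-3p passed with CPM over total reads (0.25), CPM over all other features (0.25), the deposited values (a score difference of 0.47), low features left out, 1 fit over 20 libraries or the replicate block (0.24 in each), thinned libraries (0.26) and voom (0.22), with adjusted p of 0.0142 to 0.0427. The knockout OGD difference of miR-9b-5p passed with total reads (-0.31), the deposited values (a score difference of -0.44), low features left out, 1 fit over 20 libraries, voom or the replicate block (-0.30 in each). The deposited values also called miR-9b-5p between genotypes in OGD (score difference -0.49) and the knockout arm ratio (-0.0147 on their log scale), and turned miR-9b-3p between genotypes in normoxia (score difference -0.032), as did voom (-0.0088). With miR-9b-5p over miR-9-3p in place of both rows, the differences per 100 reads were -5.58 and -3.65 after OGD in knockout and wild type and -3.23 and -1.30 between genotypes in OGD and normoxia. With 1 library left out, an alternative added after seeing the data, these ranged from -6.62 to -4.53, -4.45 to -1.65, -3.61 to -2.70 and -2.35 to 0.701. The labels do not say whether replicate numbers pair the samples, and not every same-numbered pair had an r over 0.1 (-0.38 to 0.67, with 13 of 20 over 0.1). Between OGD and normoxia 4 of 5 pairs did in each genotype, and 4 of 5 wild-type and 3 of 5 knockout numbers matched best with their own, a hint from the data and not the design. The replicate block called 389 features in wild-type and 403 in knockout neurons after OGD. With the replicate block and median centring the values equalled those of centring alone, and with sign flips of the share of miR-9-3p, 0.316 points in knockout and 0.336 in wild-type neurons, no p can go below 0.0625. With 1 library left out, ranges were -0.20 to -0.10 for the knockout arm ratio and -0.032 to 0.066 for that between genotypes in OGD. For miR-9-3p they were 0.19 to 0.27 (OGD, knockout), 0.17 to 0.28 (OGD, wild type), -0.047 to 0.067 (interaction), -0.011 to 0.10 (genotype, normoxia) and 0.263 to 0.357 points (share, OGD, knockout). For miR-9-5p they were -0.084 to 0.022 (OGD, wild type), -0.084 to 0.014 (genotype, normoxia), and in points of share -0.851 to 0.1605 and -0.590 to 0.251 for the same. For miR-9b-3p they were -0.069 to 0.00090 and -0.045 to 0.075 (OGD, knockout and wild type), -0.11 to 0.011 (interaction) and -0.065 to 0.055 (genotype, normoxia). For miR-9b-5p they were -0.38 to -0.21 and -0.096 to 0.016 (OGD, knockout and wild type) and -0.13 to 0.040 (genotype, normoxia), and for both miR-9b rows per 100 reads -0.0228 to 0.736 (genotype, normoxia). For groups that differ in both factors, where this was added after seeing the data, knockout OGD against wild-type normoxia gave 0.22 to 0.33 (miR-9-3p), -0.0061 to 0.098 (miR-9-5p) and -0.099 to 0.020 (miR-9b-3p), and wild-type OGD against knockout normoxia -0.052 to 0.029 (miR-9-5p), -0.015 to 0.055 (miR-9b-3p) and -0.090 to 0.076 (miR-9b-5p). The cause of these changes was not tested. Over all features voom called 693 and 784 after OGD in wild-type and knockout neurons, against 341 and 363, and thinned libraries called 234 in the knockout. With low features left out 223 were called in wild type, but of the 425 features tested there, so this count is not comparable. In OGD, 1 fit over 20 libraries called 4 between genotypes.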
